A study of Caenorhabditis elegans with 4 samples.

Results

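Described here are the 416 highly expressed X-linked genes of Caenorhabditis elegans whose gene spans at most 10000 bp, out of 16623 genes listed in both of the authors' deposited tables. They were chosen by their measured level, a mean of 1000 normalized counts or more in each table, together with their chromosome and their span in the Ensembl gene models. Of 481 X genes at that level, 64 were longer than 10000 bp and 1 had no gene model. Transcript levels were measured by RNA sequencing of poly(A)-selected RNA in 2 groups of 2 libraries, each set by the authors against control strain CA1200. Strain AM11 carries top-2::degron::GFP together with dpy-27::degron::GFP, and on auxin its larvae lose TOP-2 and DPY-27. Strain AM12 carries top-1::degron::GFP together with dpy-27::degron::GFP, and its larvae lose TOP-1 and DPY-27. Starved L1 larvae were grown for 24 h at 22 °C to the L2/L3 stage and then spent 2 h on 1 mM auxin, and the CA1200 control was kept on auxin for as long. CA1200 is known as a strain that makes TIR1 in somatic cells from the eft-3 promoter and carries no tagged target. No group lost DPY-27 alone or a topoisomerase alone, so the parts of the removed proteins cannot be told apart. The control libraries are not analysed here as samples, and the tables hold no value per library. Each depletion is a strain of its own set against CA1200. Differences of strain from the control, and any of batch or larval age, therefore cannot be told apart from the depletion.

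With an auxin-inducible degron, auxin lets the plant F-box protein TIR1 bind the tag, and the proteasome then destroys the tagged protein. DPY-27 is the SMC subunit particular to condensin DC, a condensin that is loaded on both X chromosomes of hermaphrodites and spreads along them, where it represses transcription and so brings X expression near that of the single X of males. TOP-1 nicks a single DNA strand and lets supercoils ahead of and behind RNA polymerase relax, whereas TOP-2 cuts both strands and passes another duplex through, which relaxes supercoils and untangles DNA.

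The p-values are those of the authors' DESeq2 test, adjusted over the genes that have an adjusted p in each deposited table, and a gene was called at an adjusted p under 0.05. The series' text calls the replicates biological without saying how they were grown apart, so the p-values measure only the spread between these libraries. Total reads per library are unknown. A level per group was computed for each gene from its mean normalized count and its fold change, with 2 control libraries. With that number the control level came out alike from both tables, with a median disagreement of 0.173% over 9070 genes, against 1.84% with 3 control libraries. Among the 416 genes the disagreement had a median of 0.224% and a maximum of 1.20%. These implied levels are group means without a spread, and no sentence on them says how single libraries lay. The degron removes protein and leaves the transcript, so top-2 at -0.17 ± 0.36 in AM11, top-1 at -0.17 ± 0.31 in AM12 and dpy-27 at -0.13 ± 0.41 in AM11 and -0.55 ± 0.37 in AM12 (log2 fold change ± SE in the authors' deposited tables) give no check of the labels.

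In AM11 larvae, depleted of TOP-2 and DPY-27, the highly expressed X genes lay above the control and above autosomal genes of the same level and span. The median log2 fold change, computed from the authors' deposited table, was 0.38 (1.31-fold; quartiles -0.02 and 0.74) for the 416 X genes and -0.37 (0.775-fold; quartiles -0.73 and -0.03) for the 1704 autosomal genes of the same level and span. The distance between the medians was 0.75, or 1.68-fold. Of the 416 genes 311 (74.8%) lay above 0, against 22.7% of the autosomal genes. By the authors' deposited table, 75 of the 416 genes were called higher (18.03%), where 14.1% of all 14958 genes tested were, and 17 were called lower (4.09%), where 7.47% of all were. Among the autosomal genes of the same level and span 60 were called higher (3.52%) and 276 lower (16.2%). Other X genes were called higher at least as often. The share was 28.1% of 1461 X genes up to 10000 bp with a lower mean from 10 to under 1000. It was 20.3% of the 64 X genes of the same level longer than 10000 bp. The members were chosen by counts of these same libraries, so the medians and shares are a description without a test.

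In AM12 larvae, depleted of TOP-1 and DPY-27, the X genes also lay above the control and above the autosomal genes. The median log2 fold change from the authors' deposited table was 0.57 (1.49-fold; quartiles 0.07 and 0.98) for the 416 X genes and -0.27 (0.830-fold; quartiles -0.66 and 0.05) for the autosomal genes, a distance of 0.84 or 1.79-fold. Above 0 lay 324 of the 416 genes (77.9%), against 28.2% of the autosomal genes. There, 150 of the 416 genes were called higher (36.1%), with 17.1% of all 14854 genes tested as background, and 23 were called lower (5.53%), with 12.8% as background. Of the autosomal genes 75 were called higher (4.40%) and 318 lower (18.7%). Among X genes up to 10000 bp below the level 38.2% were called higher, and among the longer X genes of the same level 12.5%. Both tables share the control libraries, so a gene's position in one is not independent of its position in the other.

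Most of the fold changes were modest. By the authors' deposited tables, 332 of the 416 genes lay within 1 log2 unit of the control in AM11 larvae, and 291 did in AM12 larvae. At least 1 unit above the control lay 63 genes in AM11 larvae and 100 in AM12 larvae, and at least 1 unit below lay 21 in AM11 larvae and 25 in AM12 larvae. The calls divided into 81.5% higher for AM11 larvae, or 93.4% once fold changes were centred on the autosomal median, beside 65.3% over all genes. For AM12 larvae 86.7% were higher, or 92.7% once centred, beside 57.1% over all genes. Centring ended 5 of the 17 lower calls in AM11 larvae and 6 of the 23 in AM12 larvae, and turned the sign of no called gene.

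**Figure D1:**
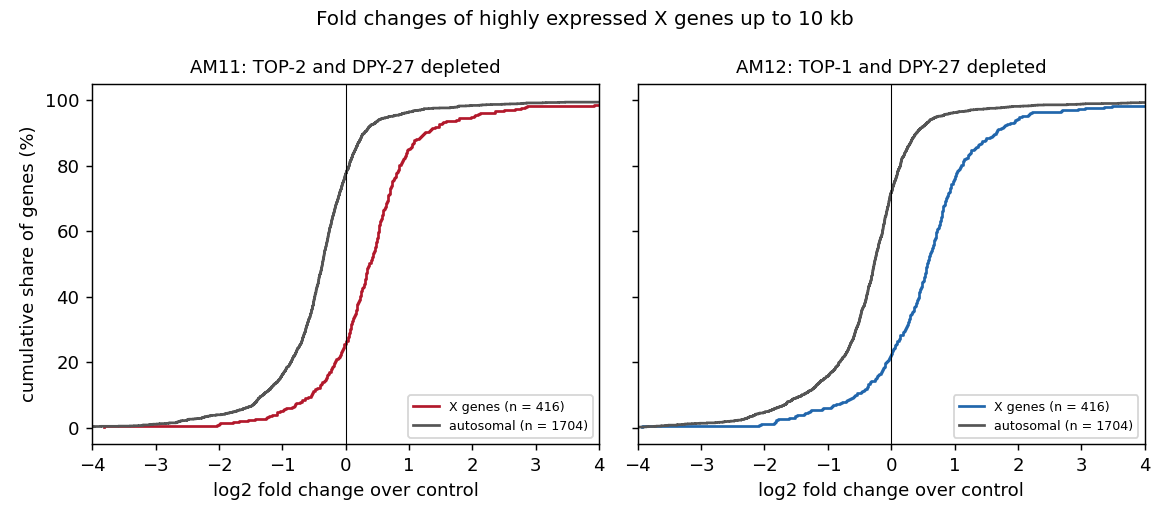
Cumulative share of genes (y axis, percent) by log2 fold change over control (x axis, cut at 4 units either side) for the 416 highly expressed X genes up to 10 kb, in colour, and the 1704 autosomal genes of the same level and span, in grey. The X curve lies to the right of the autosomal curve in both depletions, with medians of 0.38 for X and -0.37 for autosomal genes in AM11 larvae, on the left, and of 0.57 for X and -0.27 for autosomal genes in AM12 larvae, on the right.

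The level threshold itself bears on these numbers, because it used depleted and control libraries together. The implied control level of 63 of the 416 genes was under 1000 while both depleted levels were above it, and 6 genes had the reverse. The counts of calls given above include all of these genes, and the 63 entered through their depleted libraries. Among the 1704 autosomal genes 49 had a control level under 1000 with both depleted levels above it, and 140 had the reverse. Over the genes whose control level was at least 1000, the median log2 fold change in AM11 larvae was 0.28 for the X genes and -0.38 for the autosomal genes. In AM12 larvae it was 0.49 for the X genes and -0.28 for the autosomal genes. In all, the 416 genes held 14.1% of the summed normalized counts in AM11 larvae, 15.8% in AM12 larvae and 9.95% in the control. The autosomal genes held 56.8% in AM11 larvae, 59.7% in AM12 larvae and 65.4% in the control. Just inside the level threshold were unc-6, a netrin, and C11E4.6, each with a lower mean of 1001, and just outside were rml-3 and dhs-25, at 994 and 995. On the span threshold mop-25.1 entered at 9991 bp and tmbi-4 at 9957 bp, while fkh-9 at 10117 bp and unc-96 at 10171 bp missed. In the authors' deposited tables the 4 genes just inside either threshold lay between -0.32 and 0.77 in AM11 larvae, and the 4 just outside between -0.86 and 1.46.

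Among the 12 genes of highest mean count were genes of muscle, translation, the extracellular matrix and proteolysis. Of the 12, asp-3, mlc-2 and tnt-2 were called higher in AM12 larvae, and none was called in AM11 larvae. The gene act-4, one of the worm's actins, had an implied level of 66542 in AM11 larvae, 95008 in AM12 larvae and 58463 in the control. F46H5.3 had 60790 in AM11, 93045 in AM12 and 58623 in control larvae, so that both of these genes were highest in AM12 larvae and neither was called. The ribosomal protein gene rpl-11.2 stood at 43952 in AM11, 51785 in AM12 and 42920 in control larvae. Its fellow rpl-25.1 had 33396 in AM11, 40516 in AM12 and 28907 in control larvae. The type IV collagen chain let-2, a core of basement membranes, stood at 53479 in AM11, 46030 in AM12 and 27709 in control larvae. These translation and matrix genes lay above the control in each depletion without passing the test. Once fold changes were centred on the autosomal median, let-2 passed in AM11 (adjusted p 0.0172) and in AM12 (adjusted p 0.0441). Elongation factor eef-1A.2 had 40513 in AM11, 38576 in AM12 and 28456 in control larvae. The aspartyl protease asp-3 had 35604 in AM11, 52669 in AM12 and 22109 in control larvae, and its log2 fold change in the authors' deposited tables was 0.68 ± 0.47 (adjusted p 0.339) in AM11 larvae and 1.26 ± 0.40 (adjusted p 0.00879) in AM12 larvae. The infection response gene irg-7, at 27963 in AM11, 34002 in AM12 and 40404 in control larvae, the disulfide isomerase pdi-2, at 31221 in AM11, 28329 in AM12 and 41242 in control larvae, and the cuticle collagen col-166, at 20297 in AM11, 20872 in AM12 and 26953 in control larvae, had their highest implied level in the control, and none of them was called. Per kb of exon, short genes came to the front. The level of rpl-25.1 was 67604 normalized counts per kb of exon in AM11 larvae, 82016 in AM12 larvae and 58516 in the control. The saposin-like gene spp-14 had 56273 counts per kb of exon in AM11 larvae, 98216 in AM12 larvae and 29420 in the control, and so was the highest of the 416 genes on this scale in AM12 larvae.

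**Figure D2:**
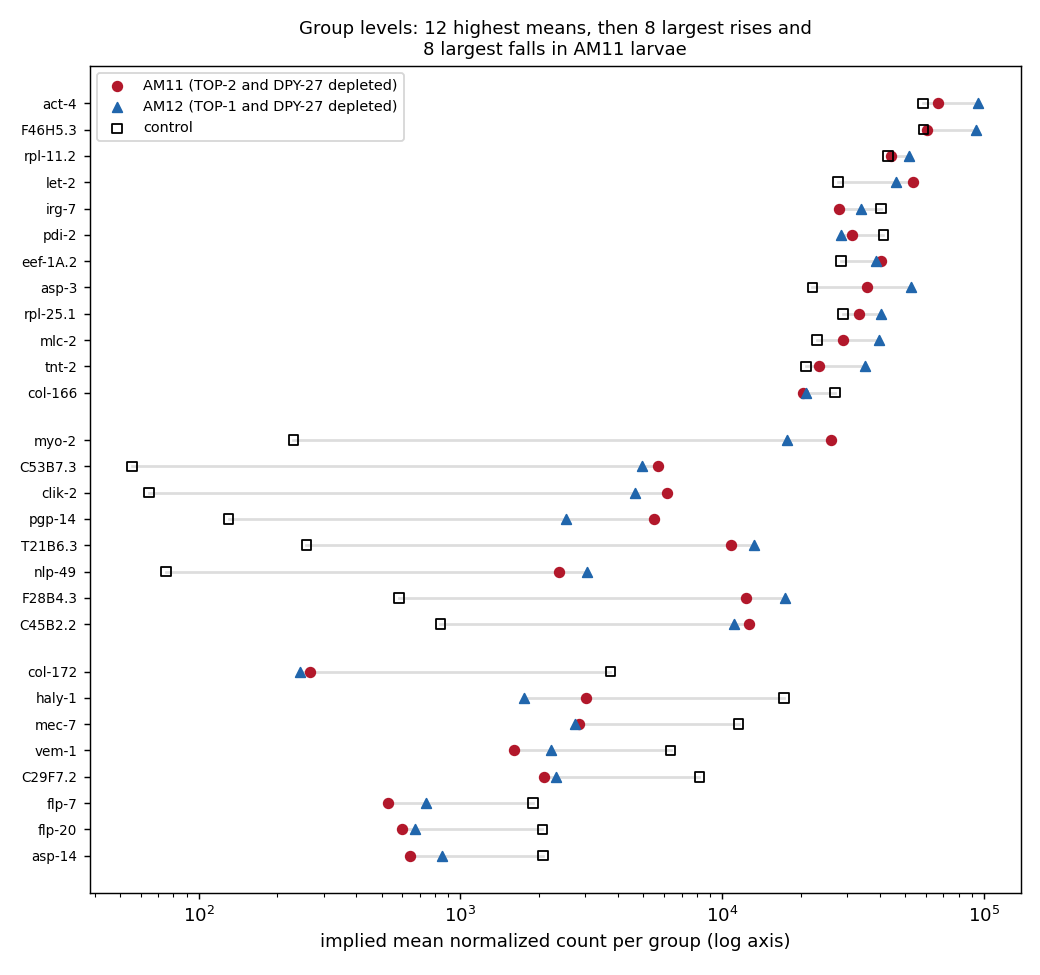
Implied mean normalized count per group (x axis, log scale, no spread available) for the 12 genes of highest mean and for the 8 largest rises and 8 largest falls in AM11 larvae; circles are AM11, triangles AM12, open squares control. Among the 12 highest the farthest from the control is asp-3, with a log2 fold change of 1.26 in AM12, whereas myo-2 stands at 26109 in AM11 and 17644 in AM12 against 230 in the control.

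The largest rises were of genes at low level in the control. Pharyngeal myosin heavy chain myo-2 had an implied level of 26109 in AM11 larvae, 17644 in AM12 larvae and 230 in the control. In the authors' deposited tables these are log2 fold changes of 6.83 ± 0.36 in AM11 and 6.26 ± 0.40 in AM12, each with an adjusted p listed as 0. The calponin-like gene clik-2, with levels of 6141 in AM11, 4651 in AM12 and 64.7 in control larvae, was at 6.57 ± 0.37 in AM11 and 6.17 ± 0.39 in AM12 in the authors' deposited tables. C53B7.3, with levels of 5661 in AM11, 4930 in AM12 and 55.7 in control larvae, was at 6.67 ± 0.46 in AM11 and 6.47 ± 0.37 in AM12 there. The pharyngeal ABC transporter pgp-14 was at 5.39 ± 0.34 in AM11 and 4.28 ± 0.38 in AM12 in the authors' deposited tables, with levels of 5472 in AM11, 2524 in AM12 and 130 in control larvae. All these genes were called higher in both depletions. T21B6.3, F28B4.3 and C45B2.2 also rose in both, by 5.39, 4.40 and 3.91 in AM11 larvae and by 5.68, 4.90 and 3.74 in AM12 larvae in the authors' deposited tables. The neuropeptide gene nlp-49 had levels of 2380 in AM11, 3053 in AM12 and 74.9 in control larvae, at 4.99 ± 0.34 in AM11 and 5.35 ± 0.34 in AM12 in the authors' deposited tables. The control level of all 8 genes was under 1000, so they passed the level threshold through the depleted libraries.

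The marker lists were chosen with earlier results of these data known, so their counts are a description without a test. The pharynx list lay mostly above the control, as the largest rises did. Of its 15 genes 14 were called higher in each of the authors' deposited tables, with medians of 5.45 in AM11 and 5.10 in AM12, and the implied levels of the list summed to 69706 in AM11 larvae, 46079 in AM12 larvae and 1682 in the control. Its lowest implied control level was 0.930, and myo-2, clik-2 and pgp-14 belong both to it and to the 416 genes. Of 16 germline markers, none among the 416 genes, 14 were called higher in AM11 larvae and 13 in AM12 larvae, with summed levels of 7081 in AM11, 4702 in AM12 and 1208 in control larvae. Of 10 hypodermis markers 2 were called lower in AM11 larvae, 6 in AM12 larvae and 0 higher in either, with sums of 16001 in AM11, 12406 in AM12 and 26329 in control larvae. Body wall muscle markers (11 of 12 listed in the tables) summed to 268470 in AM11, 274474 in AM12 and 224560 in control larvae. Neuronal markers summed to 27481 in AM11, 30595 in AM12 and 41517 in control larvae. The sums for pharynx, germline and body wall muscle were thus lowest in the control, and those for hypodermis and neurons were highest there. The body wall muscle and neuronal sums mostly follow a few abundant genes. In the AM11 comparison unc-54 and unc-15 had means of 115837 and 45464 normalized counts, and egl-3 and egl-21 of 12424 and 9294. None of these was called in either table. Of the 11 body wall muscle markers 3 were called higher and 1 lower in AM11 larvae, and 2 higher and 0 lower in AM12 larvae. Their median was 0.28 in both tables. Intestinal markers (11 of 12) summed to 161290 in AM11, 253326 in AM12 and 231598 in control larvae, although 7 of the 11 lay above 0 in AM11 larvae. The gene asp-1, with a mean of 136493 normalized counts in the AM11 comparison, made up most of each sum, so the sums mostly follow this gene. In the authors' deposited tables asp-1 was at -0.94 ± 0.49 in AM11 and -0.20 ± 0.42 in AM12, called in neither. Of these 11 genes 2 were called higher in AM11 larvae and 4 in AM12 larvae, and 0 lower in either, with medians of 0.23 in AM11 and 0.55 in AM12 in the authors' deposited tables. In whole larvae fewer cells of a type and less RNA per cell cannot be told apart. The part of these tissue differences in the results was not tested. Leaving out the members on the pharynx and germline lists and the pharyngeal gland and cuticle list kept 407 of the 416 genes. The share called higher among the 407 was 17.4% in AM11 larvae and 35.4% in AM12 larvae. With so few genes left out, this setting cannot show how far tissue differences enter the results.

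The largest falls included genes of the cuticle, of neurons and of amino acid breakdown. The cuticle collagen col-172 had an implied level of 266 in AM11 larvae, 244 in AM12 larvae and 3737 in the control. The authors' deposited tables gave it -3.81 ± 0.50 in AM11 (adjusted p 1.12e-12) and -3.93 ± 0.32 in AM12 (adjusted p listed as 0). Histidine ammonia-lyase haly-1 had levels of 3020 in AM11, 1744 in AM12 and 17200 in control larvae, at -2.51 ± 0.39 in AM11 and -3.30 ± 0.35 in AM12 in the authors' deposited tables. The beta-tubulin mec-7, which builds the microtubules of touch receptor neurons, had 2831 in AM11, 2732 in AM12 and 11549 in control larvae, at -2.03 ± 0.37 in AM11 and -2.08 ± 0.33 in AM12 there. The FMRFamide-like neuropeptide genes flp-7 and flp-20 fell by 1.84 and 1.78 in AM11 larvae and by 1.36 and 1.62 in AM12 larvae in the authors' deposited tables. Also called lower in both were vem-1, a membrane protein of axon guidance, with levels of 1598 in AM11, 2224 in AM12 and 6346 in control larvae, the aspartyl protease asp-14, with 643 in AM11, 849 in AM12 and 2069 in control larvae, and C29F7.2, with 2083 in AM11, 2319 in AM12 and 8177 in control larvae. Of the 12 neuronal markers 2 were called lower in AM11 larvae and 5 in AM12 larvae, and their part in the falls of neuronal genes was not tested.

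Not all of the lowest fold changes in AM12 larvae passed the test. The collagen dpy-7 was at -1.85 ± 0.46 (adjusted p 0.000454) and the tyrosine aminotransferase tatn-1 at -1.83 ± 0.45 (adjusted p 0.000358) in the authors' deposited table, and H42K12.3 at -1.82 ± 0.41. The non-coding RNA lep-5, a regulator of developmental timing, was at -2.06 ± 1.96 and col-180 at -1.85 ± 1.17, and neither was called. For lep-5 the SE was also 1.91 in AM11 larvae. An SE over 0.5 was carried by 45 of the 416 genes (10.8%) in AM11 larvae and by 11 (2.64%) in AM12 larvae, of which 2 were called in AM11 larvae and 3 in AM12 larvae. Among the autosomal genes those shares were 9.74% in AM11 larvae and 2.58% in AM12 larvae.

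The members were then read by role, with 132 of the 416 genes in 15 lists and 284 in none. Counts below are calls in the authors' deposited tables, to be read beside the backgrounds of 14.1% higher and 7.47% lower in AM11 larvae, and 17.1% and 12.8% in AM12 larvae. The counts include genes with an implied control level under 1000, which passed the level threshold through the depleted libraries. Among these are myo-2, clik-2, pgp-14, ugt-46, acs-17, set-30 and ife-2. List medians are of log2 fold changes as deposited, and the median once centred on the autosomal genes is added where its sign differs. Over all genes in both tables the median was 0.03 in AM11 larvae and 0.04 in AM12 larvae. The lists were not tested, and the members in no list had medians of 0.43 in AM11 larvae and 0.58 in AM12 larvae.

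Of 12 genes of muscle contraction 3 rose in AM11 larvae and 6 in AM12 larvae, and none fell, with medians of 0.47 in AM11 and 0.73 in AM12. The other gene called in both beside myo-2 and clik-2 was tnt-3, a troponin T, at 2.04 ± 0.33 in AM11 and 1.797 ± 0.33 in AM12 in the authors' deposited tables, with levels of 8332 in AM11, 7048 in AM12 and 2027 in control larvae. The regulatory myosin light chain mlc-2 was at 0.32 ± 0.31 (adjusted p 0.518) in AM11 larvae and at 0.79 ± 0.30 (adjusted p 0.0301) in AM12 larvae in the authors' deposited tables. Its close relative mlc-1 was at 0.67 ± 0.31 in AM11 and 0.57 ± 0.30 in AM12 there, called in neither. Once fold changes were centred, mlc-1 was called higher in AM11 (adjusted p 0.00545) and in AM12 (adjusted p 0.0217). Reads that match both mlc-1 and mlc-2 may have been split between them. Troponin T tnt-2 was at 0.17 ± 0.31 in AM11 and 0.75 ± 0.29 in AM12, and troponin I unc-27 at 0.50 ± 0.30 in AM11 and 0.92 ± 0.30 in AM12, each called higher in the AM12 table alone. Actin act-4 was called in neither.

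Genes of the mitochondrion differed between the tables in their number of calls. None of 10 was called in AM11 larvae, with a median of 0.34, and 9 of 10 were called higher in AM12 larvae, with a median of 0.87. These counts depend on the fold changes being uncentred. Once centred, the list medians were 0.71 in AM11 and 1.14 in AM12. Centring raised the share of all 416 members called in AM11 larvae from 22.1% to 43.5%. The ATP synthase subunit asb-2 was at 0.24 ± 0.35 in AM11 and 0.81 ± 0.32 in AM12, and asg-2 at 0.52 ± 0.33 in AM11 and 1.24 ± 0.33 in AM12 in the authors' deposited tables. The succinate dehydrogenase subunit sdha-1 was at 0.53 ± 0.30 in AM11 and 1.13 ± 0.29 in AM12, the complex I subunit gas-1 at 0.32 ± 0.36 in AM11 and 0.93 ± 0.34 in AM12, and the complex III subunit ucr-2.1 at 0.17 ± 0.34 in AM11 and 0.79 ± 0.32 in AM12 there. These subunits all lay above the control in both tables and were called in AM12 larvae. For ucr-2.1 that call was lost when p-values were adjusted over every gene (adjusted p 0.0509). The propionyl-CoA carboxylase subunit pcca-1 had implied levels of 14590 in AM11, 19112 in AM12 and 9752 in control larvae, and its partner pccb-1 of 14917 in AM11, 21518 in AM12 and 12119 in control larvae. The exception, aco-1, is a cytosolic aconitase, at -0.48 ± 0.32 in AM11 and -0.37 ± 0.30 in AM12 in the authors' deposited tables. The test of the difference between the depletions called none of these 10 genes.

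Of 14 genes of proteases and the lysosome 4 rose and 1 fell in AM11 larvae, and 8 rose and 1 fell in AM12 larvae, with medians of 0.55 in AM11 and 1.098 in AM12. The serine carboxypeptidase ctsa-2 had levels of 17206 in AM11, 16091 in AM12 and 3978 in control larvae, at 2.11 ± 0.30 in AM11 and 2.02 ± 0.30 in AM12 in the authors' deposited tables. The saposin-like gene spp-14 had 20033 in AM11, 34965 in AM12 and 10474 in control larvae, at 0.93 ± 0.36 in AM11 (adjusted p 0.0464) and 1.74 ± 0.33 in AM12 (adjusted p 2e-06) there. Its call in AM11 larvae was lost when p-values were adjusted over every gene (adjusted p 0.0525). The astacin metalloprotease nas-11, chosen after its values were seen, was at 2.77 ± 0.35 in AM11 and 3.05 ± 0.32 in AM12 in the authors' deposited tables. With an implied control level under 1000, nas-11 passed the level threshold through the depleted libraries. A further saposin-like gene, spp-5, was called in neither, at -0.52 ± 0.44 in AM11 and 0.49 ± 0.39 in AM12.

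Genes of redox chemistry and detoxification rose in 3 of 8 cases in AM11 larvae and in 4 of 8 in AM12 larvae and fell in none, with medians of 0.77 in AM11 and 0.88 in AM12. Beside pgp-14, these were the haem exporter mrp-5, at 1.54 ± 0.37 in AM11 and 1.04 ± 0.35 in AM12, and the glucuronosyltransferase ugt-46, at 2.00 ± 0.43 in AM11 and 2.17 ± 0.35 in AM12 in the authors' deposited tables, and in AM12 larvae the ABC transporter mrp-2. Both pfk-1.1, the phosphofructokinase of glycolysis, and tps-1, a trehalose phosphate synthase, rose in both depletions, by 0.90 and 0.83 in AM11 larvae and by 1.097 and 0.96 in AM12 larvae in the authors' deposited tables. The glyceraldehyde phosphate dehydrogenase gpd-3, at -0.10 ± 0.34 in AM11 and 0.53 ± 0.32 in AM12, was not called, and its near-identical neighbour gpd-2 makes its counts uncertain. None of the 3 proton pump genes was called in AM11 larvae, and vha-15, at 0.82 ± 0.31 (adjusted p 0.0289) in the authors' deposited table, rose in AM12 larvae.

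Of 5 translation genes none was called in AM11 larvae and 1, the cap-binding ife-2, rose in AM12 larvae, at 0.81 ± 0.32 in the authors' deposited table. All 5 fold changes were above 0 in both tables, with medians of 0.46 in AM11 and 0.49 in AM12. Of 6 chaperone genes none was called in AM11 larvae, and the small heat shock genes hsp-25, at 0.87 ± 0.31, and hsp-43, at 1.13 ± 0.34 in the authors' deposited table, rose in AM12 larvae. The list medians were 0.27 in AM11 and 0.26 in AM12. Among 11 genes of chromatin and nucleic acids 2 rose in AM11 larvae and 3 in AM12 larvae, and none fell, with medians of 0.28 in AM11 and 0.41 in AM12. These were hrpa-2, an hnRNP A protein, at 0.92 ± 0.33 in AM11 and 1.07 ± 0.32 in AM12, the SET domain gene set-30, at 1.19 ± 0.31 in AM11 and 0.85 ± 0.31 in AM12, and, in the AM12 table alone, the histone H3.3 gene his-71, at 0.28 ± 0.30 in AM11 and 0.82 ± 0.29 in AM12 in the authors' deposited tables. The linker histone his-24 was at -0.02 ± 0.38 in AM11 and -0.32 ± 0.35 in AM12, called in neither.

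Cuticle and apical matrix genes moved in both directions. Of 16 genes of the cuticle and basement membrane list 1 rose and 1 fell in AM11 larvae, and 3 rose and 5 fell in AM12 larvae, with medians of 0.11 in AM11 and -0.00 in AM12 (0.27 once centred). The list takes genes by symbol and so holds dpy-6 and dpy-23, which are not collagens. Without them the medians of the remaining 14 genes were -0.19 in AM11 (0.18 once centred) and -0.37 in AM12, an alternative chosen after the values were seen. The 3 that rose in AM12 larvae were the neighbours col-167, col-168 and col-169, at 0.89, 1.66 and 1.26 in the authors' deposited table, with 0.59, 1.35 and 0.98 in AM11 larvae, where col-168 alone was called. The 5 that fell were col-172, the furrow collagens dpy-3, dpy-7 and dpy-8, and col-41, at -0.94 ± 0.31 (adjusted p 0.0103) in the authors' deposited table. The calls of col-41 and dpy-8 were lost once fold changes were centred (adjusted p 0.0822 for col-41). Of 10 galectin and cell surface genes none was called in AM11 larvae, and lpr-3, at -1.49 ± 0.52, and mlt-9, at -1.38 ± 0.41 in the authors' deposited table, fell in AM12 larvae, lpr-3 not once centred (adjusted p 0.0587). The medians were -0.37 in AM11 and -0.40 in AM12, the lowest of the 15 lists in both tables, or -0.00 in AM11 and -0.13 in AM12 once centred. The hypodermis markers were lower in the same libraries, with medians of -0.87 in AM11 and -1.22 in AM12, and their part in these falls was not tested.

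Of 13 neuropeptide and neuronal genes 3 rose and 2 fell in each table, with medians of -0.03 in AM11 (0.34 once centred) and 0.20 in AM12. The risers were nlp-49, flp-8 and twk-18, a potassium channel of body wall muscle, and the genes that fell were flp-7 and flp-20. The implied levels of flp-8 were 1763 in AM11, 2467 in AM12 and 242 in control larvae. All 3 risers had an implied control level under 1000, so they passed the level threshold through the depleted libraries. The vesicle release gene unc-18 was at 0.12 ± 0.32 in AM11 and 0.41 ± 0.31 in AM12 in the authors' deposited tables. Of 9 genes of lipid transport and metabolism 1 rose and 2 fell in AM11 larvae and 3 rose in AM12 larvae, with medians of -0.05 in AM11 (0.32 once centred) and 0.54 in AM12. The acyl-CoA synthetase acs-17 rose in both, at 1.47 ± 0.33 in AM11 and 1.43 ± 0.33 in AM12 in the authors' deposited tables. Of 6 genes of the pharyngeal gland and cuticle list 1 rose in AM11 larvae, and 3 rose and 1 fell in AM12 larvae, with medians of 0.70 in AM11 and 0.83 in AM12. The gene fipr-21 rose in both, with levels of 15372 in AM11, 24878 in AM12 and 3012 in control larvae. Of 6 cytoskeletal genes the intermediate filament ifp-1 rose in both depletions, at 1.05 ± 0.33 in AM11 and 1.497 ± 0.33 in AM12 in the authors' deposited tables, mec-7 fell in both, and ifa-4 fell in AM12 larvae, a call lost once centred. The list medians were -0.04 in AM11 (0.33 once centred) and 0.11 in AM12.

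Among the 284 genes in no list 54 rose and 10 fell in AM11 larvae, and 101 rose and 10 fell in AM12 larvae. Several known transporters and signalling genes were among the risers, and those named in this paragraph were chosen after their values were seen. The intestinal peptide transporter pept-1 had levels of 5528 in AM11, 6073 in AM12 and 544 in control larvae, at 3.34 ± 0.46 in AM11 and 3.48 ± 0.40 in AM12 in the authors' deposited tables. The glutamate transporter glt-1 was at 1.79 ± 0.36 in AM11 and 2.22 ± 0.30 in AM12, and the monocarboxylate transporter mct-4 at 2.17 ± 0.31 in AM11 and 2.02 ± 0.31 in AM12 there. The aquaporin aqp-7, at 1.07 ± 0.35 in AM11 and 1.65 ± 0.29 in AM12, and the secreted osmotic stress protein osm-11, at 1.08 ± 0.32 in AM11 and 1.102 ± 0.31 in AM12 in the authors' deposited tables, rose in both as well. So did egl-15, the fibroblast growth factor receptor, at 1.40 ± 0.43 in AM11 and 1.61 ± 0.39 in AM12, and aak-2, the catalytic subunit of AMP-activated kinase, at 0.87 ± 0.34 in AM11 and 0.86 ± 0.33 in AM12 there. The amyloid precursor-like gene apl-1 passed in AM12 larvae alone, at 0.63 ± 0.33 in AM11 and 0.85 ± 0.32 in AM12 in the authors' deposited tables. The implied control levels of pept-1, mct-4 and egl-15 were under 1000, so these genes passed the level threshold through the depleted libraries.

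**Figure D3:**
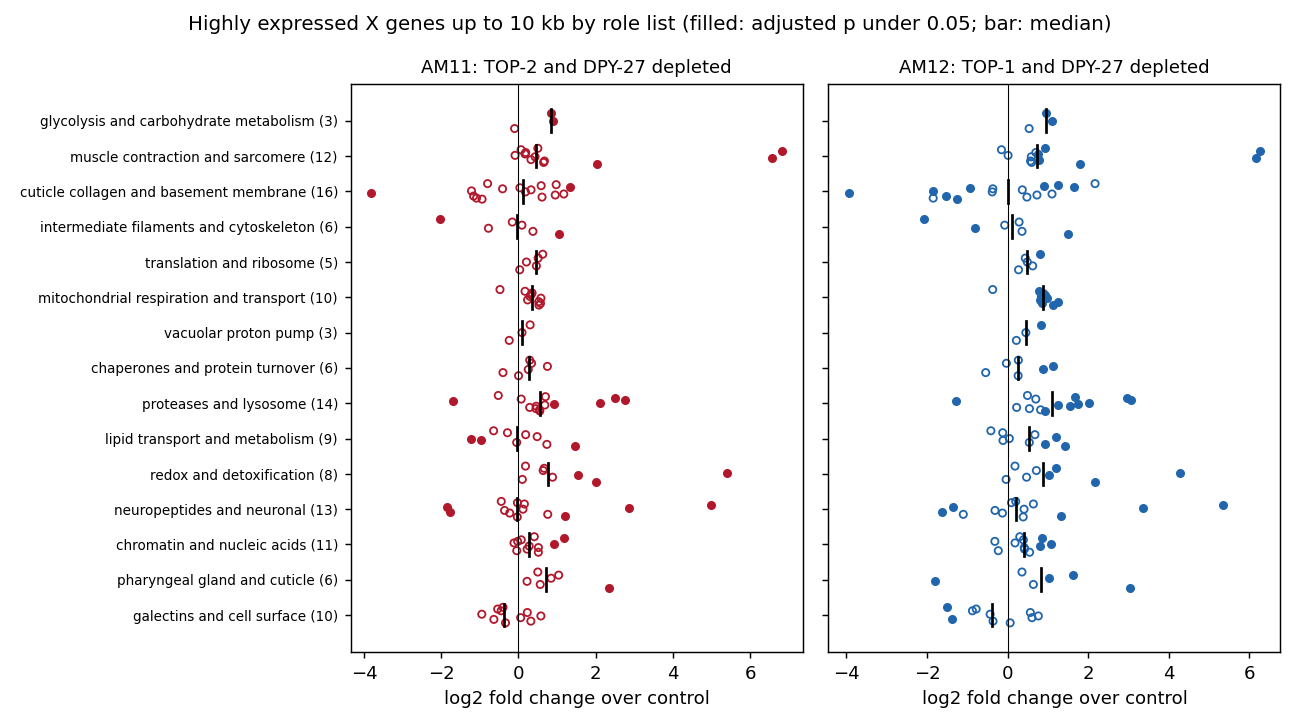
Log2 fold change over control (x axis) of each of the 132 genes in a role list, by list (rows, number of genes in brackets), in AM11 larvae on the left and AM12 larvae on the right; filled points have an adjusted p under 0.05 and bars are list medians. Fold changes and calls are uncentred. The mitochondrial list has no filled point on the left and 9 on the right, and the galectin and cell surface list has the lowest median in both panels.

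Gene span, position and neighbours were then compared within the list. The median log2 fold change in AM11 larvae was 0.14 for members up to 2053 bp, 0.37 up to 4445 bp and 0.54 above that, beside -0.45, -0.36 and -0.23 for autosomal genes in the same span classes. X genes of the same level longer than 10000 bp had 0.53, beside -0.15. In AM12 larvae the medians were 0.54, 0.64 and 0.56 with 0.45 for the longer X genes, beside -0.19, -0.29 and -0.39 with -0.70 for autosomal genes. The distance between X and autosomal medians therefore lay at 0.58, 0.72, 0.77 and 0.68 in AM11 larvae and at 0.73, 0.93, 0.94 and 1.15 in AM12 larvae, short to long. As a description across the 416 genes, which share the libraries, Spearman's rho of fold change with span was 0.26 in AM11 larvae and 0.04 in AM12 larvae. Over the 1704 autosomal genes it was 0.16 in AM11 larvae and -0.15 in AM12 larvae. Genes with several annotated transcripts, which are also longer, had medians of 0.45 in AM11 and 0.60 in AM12, and those with a single transcript 0.32 in AM11 and 0.55 in AM12.

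**Figure D4:**
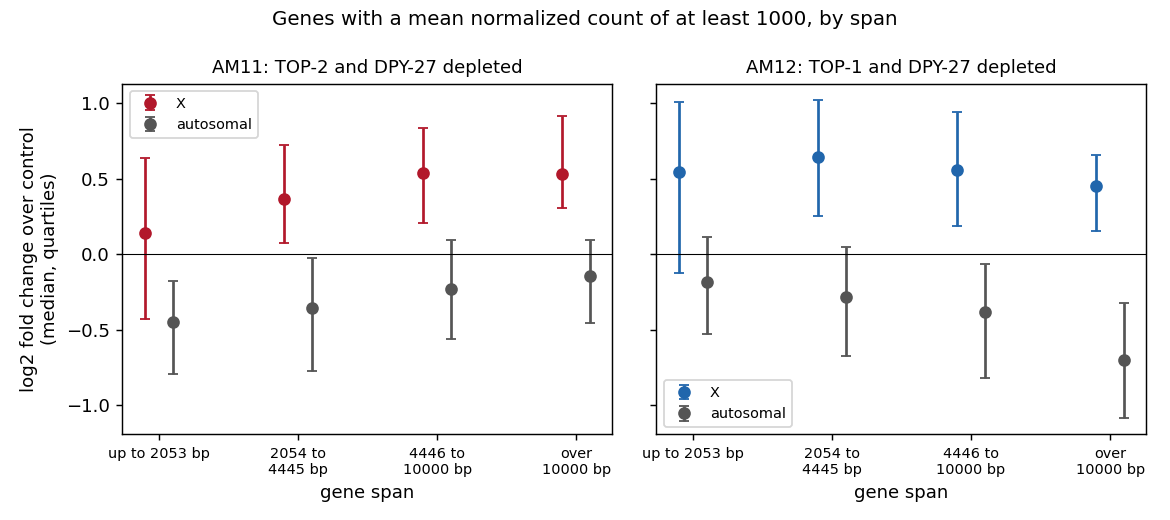
Median log2 fold change over control with quartiles (y axis) by gene span (x axis) for X genes, in colour, and autosomal genes, in grey, at or above 1000 mean normalized counts. X medians lie above autosomal medians in every class, and the distance runs between 0.58 and 0.77 on the left and between 0.73 and 1.15 on the right.

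Along the X the members were divided by position into 5 groups of 83 or 84 genes. Their medians were 0.41, 0.39, 0.33, 0.24 and 0.52 in AM11 larvae and 0.66, 0.69, 0.48, 0.54 and 0.59 in AM12 larvae, within the quartiles of one another. Genes on the plus strand had medians of 0.38 in AM11 and 0.55 in AM12 and those on the minus strand 0.38 in AM11 and 0.60 in AM12. By level, the distance between X and autosomal genes up to 10000 bp in AM11 larvae was 0.72 at means of 10 to 100, 0.58 at 100 to 300, 0.69 at 300 to 1000, 0.82 at 1000 to 3000 and 0.70 above 3000. In AM12 larvae it was 0.76, 0.76, 0.84, 0.86 and 0.80 over the same classes. The distance thus lay above 0 at every level, below the level of the members as well.

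Of 17 runs of at least 3 neighbouring members, all genes of the run lay above 0 in 8 runs in AM11 larvae and in 12 in AM12 larvae, and all lay below 0 in 2 runs in AM11 larvae and in 1 in AM12 larvae. The other 7 runs in AM11 larvae and 4 in AM12 larvae held both signs. The 3 collagens col-167, col-168 and col-169 lay above 0 in both tables. In a run of fatty acid binding genes, lbp-3, lbp-1 and lbp-2 were at 0.48, -1.24 and -0.97 in AM11 larvae and at 1.21, 0.04 and -0.11 in AM12 larvae in the authors' deposited tables. In AM11 larvae lbp-1 and lbp-2 were called lower, lbp-2 not once centred, and in AM12 larvae lbp-3 was called higher. The small genes F53A9.1, F53A9.6, F53A9.7 and F53A9.8, next to tnt-2, were at -1.54, -1.08, -0.52 and -1.43 beside 0.17 for tnt-2 in AM11 larvae, and at -1.07, -0.60, -0.13 and -0.23 beside 0.75 in AM12 larvae in the authors' deposited tables. Of these, F53A9.1, F53A9.6 and F53A9.8 were called lower in AM11 larvae, F53A9.6 not once centred, and F53A9.1 was called lower in AM12 larvae, not once centred. The run of spp-3, spp-2 and spp-5 spread over 0.70, 2.50 and -0.52 in AM11 larvae and over 1.67, 2.95 and 0.49 in AM12 larvae. Whether these runs hold near-identical genes that could exchange reads was not checked.

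The depletions were compared directly by subtracting the log2 fold change of AM12 larvae from that of AM11 larvae, which removes the control. The SE was taken as if both fold changes were independent, which overstates it. The median difference over the 416 genes was -0.18 (quartiles -0.47 and 0.08), with 284 genes (68.3%) below 0. It was -0.30 for the 299 members up to 5000 bp, -0.12 with no limit on span and -0.085 once both tables were centred. It was -0.10 over the 1704 autosomal genes, with 59.2% below 0. By a Wald test with Benjamini-Hochberg adjustment over 14646 genes, 1 member was called, where 15 genes in all were (0.102%), and 11 members had an unadjusted p under 0.05. That member was W05H9.3, annotated as a non-coding RNA of 1512 bp. Its implied level was 2130 in AM11 larvae, 8677 in AM12 larvae and 2253 in the control. In the authors' deposited tables it was at -0.08 ± 0.37 in AM11 and 1.95 ± 0.33 in AM12, a difference of -2.03 ± 0.50 (adjusted p 0.043). The call was lost once both tables were centred (adjusted p 0.0578).

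Other large differences did not pass. The acyltransferase-like gene oac-14 rose in both depletions, with levels of 3378 in AM11, 9371 in AM12 and 522 in control larvae, and differed by -1.48 ± 0.46 (adjusted p 0.328). The fatty acid binding lbp-1 had levels of 760 in AM11, 1847 in AM12 and 1792 in control larvae and differed by -1.28 ± 0.43 (adjusted p 0.445). F53A9.8, with levels of 3977 in AM11, 9081 in AM12 and 10668 in control larvae, differed by -1.20 ± 0.54. In the opposite direction abu-12, with levels of 2928 in AM11, 726 in AM12 and 2511 in control larvae, differed by 2.01 ± 0.69 (adjusted p 0.485), and the ligand-gated channel gene lgc-21, with 2608 in AM11, 714 in AM12 and 1536 in control larvae, by 1.86 ± 0.80. H42K12.3 differed by 1.53 and tatn-1 by 1.28, both called lower in AM12 larvae alone. The farthest of all, the collagen col-176, had levels of 6923 in AM11, 53815 in AM12 and 12004 in control larvae and a difference of -2.97 ± 1.24, with an SE of 1.13 in the authors' deposited table of AM12. F35B3.4 was at 1.18 ± 1.90, so that neither sign can be told for it. With 0.5 of each variance taken as shared through the control, the smaller SE gave 5 calls among the members.

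**Figure D5:**
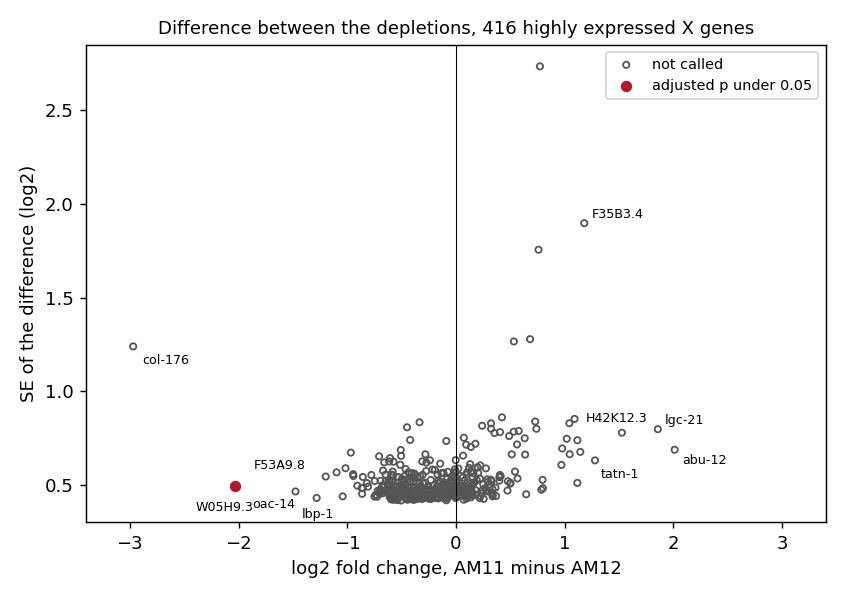
Log2 fold change of AM11 larvae minus that of AM12 larvae (x axis) against its SE (y axis) for each of the 416 genes, with the 5 lowest and 5 highest differences named. Only W05H9.3, at -2.03 ± 0.50, is filled as called, while col-176, the lowest difference, has an SE of 1.24 and F35B3.4 an SE of 1.90.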

How the data were processed

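RNA was measured in 4 libraries, 2 per depletion, and values come from 2 result tables with a line per gene. The authors deposited the mean normalized count (a signal) of each comparison's libraries. The log2 fold change of each depleted strain over CA1200 and its SE, the Wald statistic (a score) and the p-values are also theirs, per the file headers. Tools named in the submitters' processing notes are DESeq2 1.30.0, which fits the tables' columns, HTSeq 0.13.5, HISAT2 2.2.1, Cufflinks 2.2.1 and CASAVA 1.8. Libraries were stranded (dUTP), per the labels' protocols. The genome build, and how counting treated strand and reads that match several genes, are not given in the sources used here. Coordinates are therefore left out, and near-identical genes are uncertain one by one.

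Of 17491 gene names, 17164 (98.1%) matched a gene model of Ensembl release 115, used for span, exonic length, biotype and symbols. Genes with a missing adjusted p (1969 in the AM11 and 2333 in the AM12 table) were left missing. Depth per library is unknown; the median SE over all genes was 0.481 (AM11 table) and 0.461 (AM12 table). Implied group levels used 2 control libraries, with the AM12 table scaled by 1.03. The difference test took both SEs as independent. Computation used Python 3.11.15, pandas 2.3.3, numpy 2.4.6 and scipy 1.17.1, and the difference test was tried on simulated fold changes.

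The members, role lists and marker lists were chosen with earlier results of these data known. Genes named are the 12 of highest mean, the 8 largest rises and falls per table, the 5 largest differences each way, the neighbours of each threshold and up to 4 per role list of highest mean. Other genes named, among them the runs of at least 3 members within 5000 bp and further role list members, were chosen after their values were seen. Alternatives were other level, span and p thresholds, centring, adjustment over every gene, leaving out pharynx and germline genes, and a shared variance.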

Additional observations from a re-analysis of the deposited data

Results flagged for a closer look

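W05H9.3, the non-coding RNA, stood out because the difference between the depletions passed its own test: its log2 fold change in AM11 minus that in AM12 was -2.03 ± 0.50 by the Wald test (Benjamini-Hochberg adjusted p 0.043 over 14646 genes). The call was lost once both tables were centred on the autosomal genes (adjusted p 0.0578). The levels implied by the authors' deposited tables were 2130 in AM11 larvae, 8677 in AM12 larvae and 2253 in the control. How many libraries show it cannot be told without values per library. The groups have too few samples for a test of single outlying libraries.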

How the results depend on the processing

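Centring on the autosomal genes of the same level and span, which adds 0.37 to fold changes in AM11 larvae and 0.27 in AM12 larvae, raised the share of members called in AM11 larvae to 43.5% against 22.1%, the share called higher to 40.6%, and the median to 0.75. At an adjusted p under 0.01 those shares were 14.7% and 11.5%. The number of members with a called difference was 1, but 2 with a minimum mean of 500, 5 with 0.5 of each variance shared through the control (W05H9.3, oac-14, abu-12, T22B7.3 and lbp-1; 307 of all genes) and 0 once centred by the Wald test, where 11 uncentred members had an unadjusted p under 0.05. The median difference between the depletions, -0.18, was -0.30 up to 5000 bp, -0.12 without a span limit and -0.085 once centred. All other summary values kept their direction and stayed within 1.5 times under the minimum means of 500 and 2000, the spans of 5000 bp and without limit, the adjustment over every gene, an adjusted p under 0.1 and without pharynx and germline genes. Centring turned the sign of 18 named values, none of them called. In AM11 larvae these became 0.34 for flp-5, 0.14 for nlp-14, 0.32 for nhr-25, 0.13 for vha-12, 0.077 for H42K12.3, 0.27 for gpd-3, 0.35 for his-24, 0.082 for acdh-10, 0.28 for W05H9.3 and 0.21 for mua-6. In AM12 larvae they became 0.24 for hsp-3, 0.14 for nlp-14, 0.038 for nhr-25, 0.15 for lbp-2, 0.021 for irg-7, 0.040 for F53A9.8, 0.20 for spc-1 and 0.15 for acdh-10. The cuticle list median was -0.19 in AM11 larvae and -0.37 in AM12 larvae without dpy-6 and dpy-23, a setting chosen after seeing the data. Centring ended 3 calls among the named genes and added 15, and 134 kept direction and side. Each of these shifts under centring follows from the constant added. No paired analysis was possible because the tables hold no values per sample, and leaving out a replicate was not run for the same reason. Leaving out members with a near-identical paralog was not run, since no protein table was used here. Depth per library is unknown. The members' median SE was 0.352 in AM11 larvae and 0.327 in AM12 larvae, and most member changes under 1 log2 unit were not called.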
